A study of Homo sapiens with 6 samples.

Results

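Axon guidance genes encode ligands and receptors through which cells sense their neighbours, and 64 such genes were described here among the 15376 coding genes measured by RNA sequencing in PC9ER cells. They were taken by symbol: semaphorins, plexins, neuropilins, ephrins, EPHA and EPHB receptors, SLIT ligands, ROBO receptors, netrins and UNC5 genes. The prefix UNC5 also caught UNC50 and UNC5CL, which are not known as netrin receptors; the other 62 belong to the guidance families. A further 9 coding symbols that the rule would take, among them DCC, ROBO2 and SLIT3, were not analysed here. PC9ER is an established human non-small cell lung cancer line, which the submitters describe as driven by the receptor kinase EGFR and resistant to gefitinib, a small-molecule inhibitor of that kinase. The gefitinib group comprised 3 libraries from cells that received 1 µM gefitinib for the last 6 h, and the control group 3 libraries from cells given the vehicle DMSO. All libraries carry 1 protocol: growth in 10% fetal calf serum, then 72 h with the Notch inhibitor DBZ or with DMSO, then a night without serum before gefitinib. The treatment labels name gefitinib alone or DMSO alone, so no DBZ group is among them. The protocol does not say outright that control cells also lost serum; if they did not, serum and drug cannot be told apart. The labels are silent on whether replicate libraries had cultures of their own, and the p-values refer to library-to-library spread, which may be technical.

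Eph receptors are receptor tyrosine kinases that bind ephrins on the surface of neighbouring cells. A ephrins are held by a lipid anchor and B ephrins span the membrane, and signals pass into both the receptor-bearing and the ephrin-bearing cell. Semaphorins act through plexins, with neuropilins as co-receptors for most secreted, class 3 members; netrins act through DCC and UNC5 receptors, and SLIT proteins through ROBO receptors. Outside the nervous system these proteins regulate cell sorting, adhesion, migration and vessel growth, and many act on the actin cytoskeleton.

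The libraries held between 13674237 and 38581498 reads in coding genes, and each was scaled by the authors to the same total. Epithelial markers were expressed in both groups. Of 6 measured markers 1 was higher and 4 lower, with sums from 56441 to 58952 in gefitinib and from 65985 to 89624 in control libraries. EPCAM was higher, with a mean normalized read count of 12017 ± 333 (SD, n = 3) in gefitinib libraries and 9764 ± 738 in control libraries. In the same order, the lower genes were KRT19 (9013 ± 317 and 19820 ± 6719), KRT18 (10078 ± 472 and 15976 ± 1798), KRT8 (15577 ± 138 and 22399 ± 4977) and CDH1 (10609 ± 327 and 12180 ± 252). The lung marker SFTPB was low, at 14.6 ± 5.56 and 7.82 ± 4.27, and did not pass. The endothelial marker PECAM1 was present, at 122 ± 10.5 in gefitinib libraries and 1216 ± 80.4 in control libraries. CDH5, the other endothelial marker measured, was at 33.5 ± 5.09 with gefitinib and 50.5 ± 9.09 in control and did not pass. The endothelial markers, mostly PECAM1 in sum, ran from 145 to 168 in gefitinib and from 1176 to 1349 in control libraries. Their part in the results below was not tested. Of the 5 neuronal markers 2 were measured; MAP2, a microtubule protein gene, was higher with gefitinib (301 ± 6.98 against 127 ± 18.4 in control), and the vesicle gene SYP, at 29.4 ± 10.3 with gefitinib and 41.6 ± 3.45 in control, had a difference of -0.54 ± 0.31 and did not pass. The summed neuronal markers, mostly MAP2, ran from 314 to 347 in gefitinib libraries and from 153 to 189.8 in control libraries, and their part in the results was likewise not tested. Of 3 neuroendocrine markers 2 were measured, with sums from 0 to 6.56 in gefitinib and from 1.12 to 2.82 in control libraries. Of 5 fibroblast markers 4 were measured, with sums from 47.6 to 68.0 in gefitinib and from 32.4 to 71.4 in control libraries, mostly COL1A1; none of these 6 passed the test.

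Control replicate 1 stood apart from the other 2 control libraries. Among the 45 guidance genes with a mean normalized count of 10 or more, the log2 value in control 1 minus the mean of controls 2 and 3 had a median of -0.53, against 0.01 over the 12047 coding genes at this level with a known transcript. Guidance transcripts are rich in G and C, with a median GC content of 59.4% against 48.6% for those coding genes. The deviation of control 1 fell with GC content across the 45 genes (Pearson r = -0.80) and across the 12047 coding genes (r = -0.74). These r values run across genes of 1 library, which share its depth and are not independent. At a GC content of 60% or more, the 22 guidance genes had a median deviation of -0.73, against -0.72 for all 1803 coding genes in that range. Values without control 1, or with the GC trend of each library removed, are given beside the results that they move most.

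**Figure D1:**
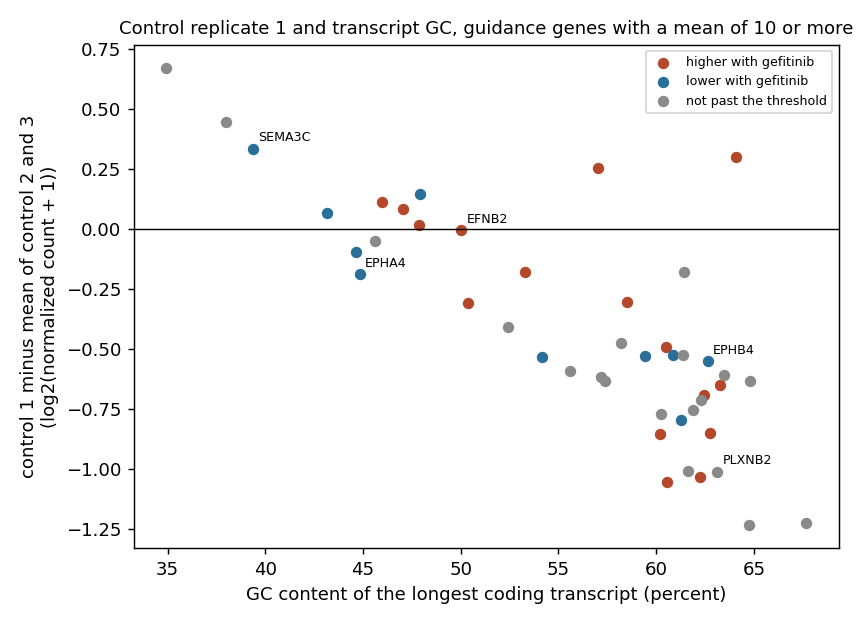
Deviation of control replicate 1 from the mean of controls 2 and 3 on the log2(normalized count + 1) scale, plotted against transcript GC content in percent; each point is 1 of the 45 guidance genes with a mean of 10 or more, coloured by its call with gefitinib. PLXNB2, at 63.1% GC, lies at -1.01, EFNB2 and EPHA4 lie near 0 at -0.0068 and -0.19, and SEMA6C (64.1% GC) and UNC5CL (57.0% GC) lie above it at 0.30 and 0.25.

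With gefitinib, 20 of the 64 guidance genes were higher and 11 lower at a limma adjusted p under 0.05, and 33 did not pass. Over all 15229 tested genes 28.3% were higher and 22.8% lower, so the members' 31.25% and 17.2% lie close to the background. The median log2 difference, gefitinib minus control on the log2(normalized count + 1) scale, was 0.23 for the members and 0.10 for all tested genes. At least 2-fold differences among the calls were found for 10 higher members (background 12.4%) and 5 lower members (background 9.92%). The libraries of the groups did not overlap for 34 members, or 53.1%, against 58.0% of all tested genes. In either direction 31 members passed, against 51.1% of all tested genes. Fitted on genes with a mean of 10 or more, 17 members were higher and 10 lower of 45, where 61.4% of all such genes passed in either direction. By edgeR on the recovered reads, which tested 45 members, 14 were higher and 11 lower, against 30.5% and 30.8% of all genes tested by edgeR (61.3% in either direction). Without control 1, 18 members were higher and 14 lower, against 30.2% and 26.4% (56.6% in either direction); without gefitinib replicate 2, gefitinib replicate 3 or control replicate 2, 13, 14 and 14 were higher, against 22.9%, 24.0% and 24.3% of all genes in the same fits. Leaving out UNC50 and UNC5CL gave 18 higher and 11 lower of 62. Of 33 ligand genes 11 were higher and 6 lower, and of 29 receptor genes 7 were higher and 5 lower. The mean normalized count was 10 or more for 45 members and under 10 for 19, of which 5 were called, against 564 of all 3132 tested genes with a mean under 10. A lower count in these bulk libraries can reflect fewer cells with a transcript or less of it per cell, which cannot be told apart.

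**Figure D2:**
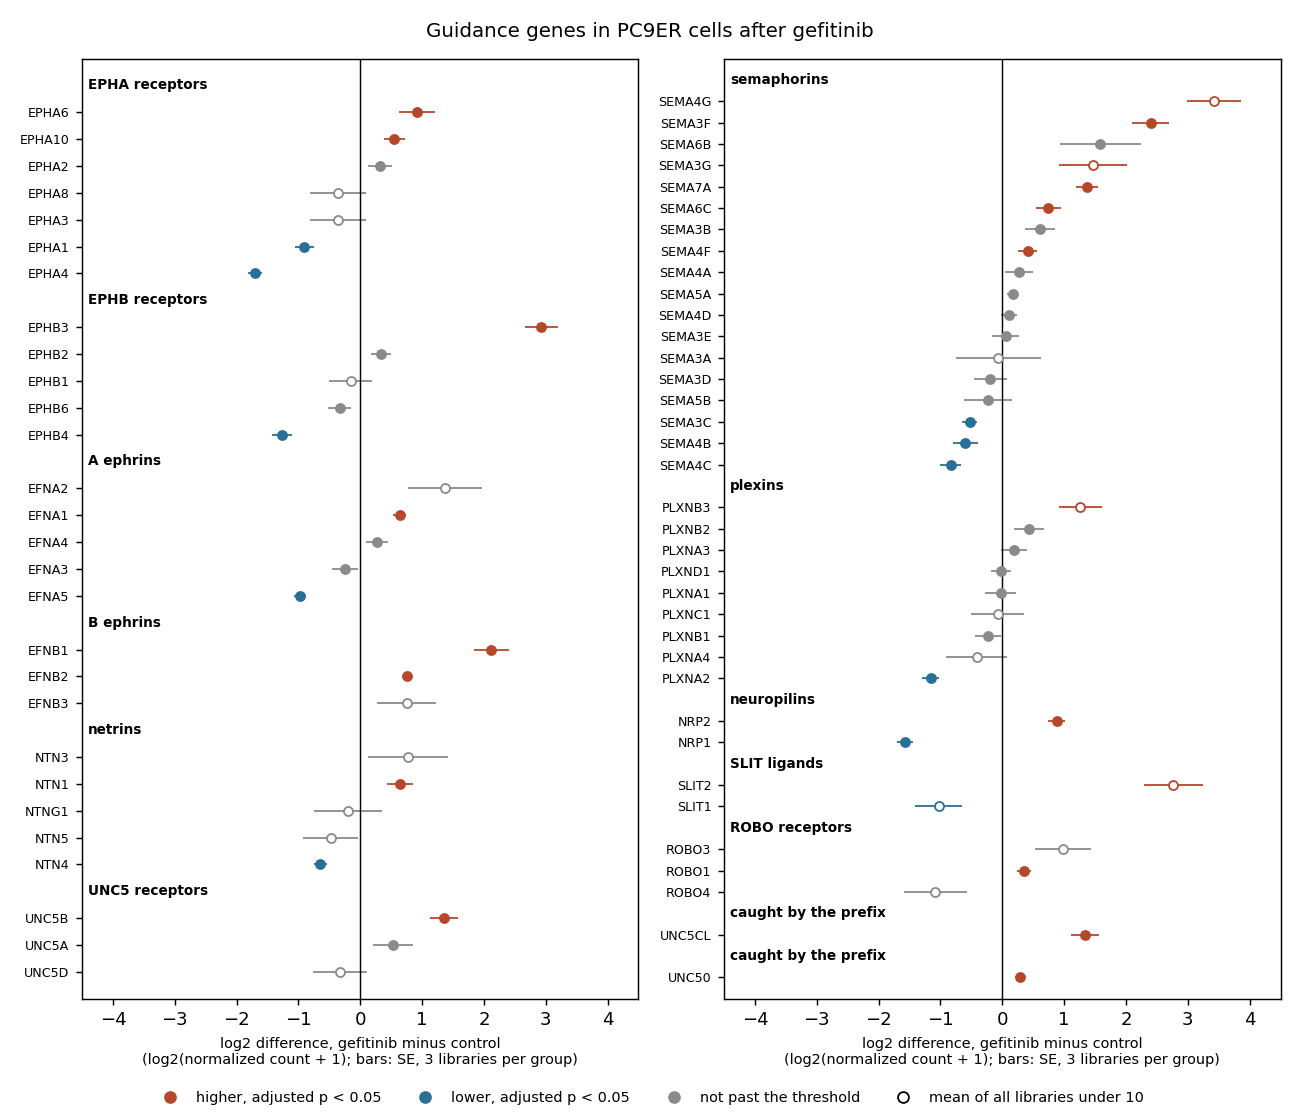
Log2 difference of each of the 64 genes, gefitinib minus control, on the log2(normalized count + 1) scale with its standard error (3 libraries per group), grouped by family; red marks a higher and blue a lower call, and open symbols have a mean under 10. Most families hold genes on both sides of 0, from SEMA4G and EPHB3 at 3.43 and 2.93 to NRP1 and EPHA4 at -1.57 and -1.70.

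Within the EPHB receptors, EPHB3 and EPHB4 moved apart. EPHB3 (chromosome 3, 184561784 to 184582409, GRCh38), a kinase-active receptor for B ephrins known from the sorting of intestinal epithelium, had normalized counts of 780.3, 929 and 989.6 in the gefitinib libraries, against 72.0, 139 and 158 in the control libraries. Every gefitinib library lay far above every control library, and the means differed 7.30-fold. The log2 difference was 2.93 ± 0.27 (SE; limma adjusted p = 2.49e-05), and 2.58 without control 1, the lowest control. EPHB4 (chromosome 7, 100802565 to 100827521), the receptor for ephrin-B2 best known from veins, had 476, 506 and 458 in gefitinib libraries, against 894, 1242 and 1383 in control libraries. The groups did not overlap, and EPHB4 fell by 1.26 ± 0.16 (limma adjusted p = 0.000138).

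EPHB6, a receptor without kinase activity, had the highest level per kilobase of exon in this family in both groups. Its counts were 2348, 2412 and 2289 in gefitinib libraries, against 2087, 3231 and 3846 in control libraries, where control 1 was the lowest of all 6. The difference of -0.33 ± 0.19 had a limma adjusted p of 0.169; without control 1 it was -0.59 (limma adjusted p = 0.000171), and edgeR on the recovered reads called it lower (adjusted p = 0.0430). Across the alternatives its adjusted p ran between 0.000171 and 0.488. EPHB2, a tumour-associated receptor of the same class, had a difference of 0.33 ± 0.16 (limma adjusted p = 0.119; 0.0103 without control 3, 0.0153 with the GC trend removed, and between 0.0103 and 0.247 across alternatives), and of 0.13 without control 1 (limma adjusted p = 0.247). EPHB1, a receptor best known from neurons, had few reads, at 5.16 ± 1.09 in gefitinib and 5.81 ± 0.878 in control libraries (SD, n = 3).

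Levels per kilobase use the merged length of all annotated exons of a gene, so they set genes beside each other only roughly. By this measure EPHB3 made up 21.0, 23.6 and 25.5% of EPHB transcripts in gefitinib libraries, against 2.53, 3.27 and 3.15% in control libraries. EPHB4 made up 8.80 ± 0.417% with gefitinib and 20.7 ± 1.37% in control (SD, n = 3). The summed EPHB level per kilobase was 848 ± 25.8 in gefitinib and 892 ± 244 in control libraries. These shares compare genes within a library, and control 1 lay near the other controls in them although its sum was the lowest.

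Among the EPHA receptors, EPHA4 and EPHA1 were lower with gefitinib. EPHA4 (chromosome 2, 221418027 to 221574202), a receptor that binds ephrins of both classes, had 516, 494 and 417 in gefitinib libraries, against 1418, 1606 and 1625 in control libraries. The groups were far apart, and control 1 was close to the other controls; EPHA4 fell by 1.70 ± 0.11 (limma adjusted p = 4.38e-06). EPHA1 (chromosome 7, 143390289 to 143408892), the founding member of the receptor family, had 693, 615 and 597 with gefitinib, against 929, 1287 and 1403 in control, and fell by 0.91 ± 0.15 (limma adjusted p = 0.000917).

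EPHA2, a receptor often abundant in carcinoma cells, had the highest level of its class per kilobase. Its counts of 1805, 1785 and 1561 in gefitinib libraries overlapped the 962, 1515 and 1778 of control libraries (difference 0.32 ± 0.20, limma adjusted p = 0.207; 0.0363 without control 3, 0.0178 with the GC trend removed, and between 0.0178 and 0.603 across alternatives); without control 1 the difference was 0.062 (limma adjusted p = 0.603). EPHA10, a receptor that lacks kinase activity, rose by 0.55 ± 0.18 (limma adjusted p = 0.0254), a difference of 0.34 without control 1; its adjusted p was 0.0733, 0.0711 and 0.0706 without gefitinib 1, 2 or 3. EPHA6 rose by 0.91 ± 0.29 at a low level, with counts of 21.2, 19.9 and 22.03 in gefitinib, against 11.3, 11.2 and 9.65 in control libraries (limma adjusted p = 0.0253; 0.0622, 0.0803, 0.0580 and 0.0710 without gefitinib 2 or 3 or control 2 or 3, and 0.142 by DESeq2). EPHA3 and EPHA8 had 0 reads in the gefitinib libraries and 1 read each in the control libraries together. Per kilobase, EPHA2 made up 60.2 ± 1.098% of EPHA transcripts with gefitinib and 39.4 ± 3.76% in control (SD, n = 3), and EPHA4 9.16 ± 0.391% with gefitinib and 24.6 ± 3.72% in control.

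The B ephrins, ligands for EPHB receptors, were both higher where they were expressed. EFNB1 (chromosome X, 68828997 to 68842147) had 615, 641 and 757 in gefitinib libraries, against 93.8, 164 and 234 in control libraries. The lowest gefitinib value was above the highest control value, the means differed 4.09-fold, and the log2 difference was 2.12 ± 0.28 (limma adjusted p = 0.000233; 1.77 without control 1). EFNB2 (chromosome 13, 106489731 to 106535662), the partner of EPHB4, had 3391, 3219.8 and 3616 with gefitinib, against 2016, 2040.5 and 2011 in control, with control libraries nearly alike. It rose by 0.75 ± 0.08 (limma adjusted p = 4.38e-05). EFNB3 had between 1.81 and 2.65 normalized counts in gefitinib and between 0 and 1.93 in control libraries. Per kilobase the summed B ephrin level was 882 ± 59.5 in gefitinib libraries and 453 ± 21.1 in control libraries (SD, n = 3), and EFNB1 made up 22.9 ± 1.28% of it with gefitinib and 10.8 ± 4.18% in control.

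The A ephrins split. EFNA1 (chromosome 1, 155127460 to 155134857), a ligand of EPHA2, had 1427, 1432 and 1384 in gefitinib libraries, against 788, 973 and 977 in control libraries, with no overlap. It rose by 0.64 ± 0.10 (limma adjusted p = 0.000765). EFNA5 (chromosome 5, 107376889 to 107670895), a ligand for several EPHA receptors, had 496, 532 and 524 with gefitinib, against 1049, 1036 and 967 in control, and fell by 0.97 ± 0.09 (limma adjusted p = 3.29e-05). EFNA3 and EFNA4 overlapped between the groups (differences -0.24 ± 0.21 and 0.27 ± 0.17, limma adjusted p = 0.365 and 0.226; -0.42 and 0.11 without control 1), and both share exons with an annotated read-through gene, so their counts are uncertain. EFNA2 had 12 reads in the gefitinib libraries and 2 in the control libraries, a depth-corrected ratio of 5.03 with an exact 95% interval from 1.12 to 46.3 that covers counting error only; its limma adjusted p was 0.0836, 0.0382 without gefitinib 2, 0.0253 without control 3, and between 0.0253 and 0.294 across alternatives.

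**Figure D3:**
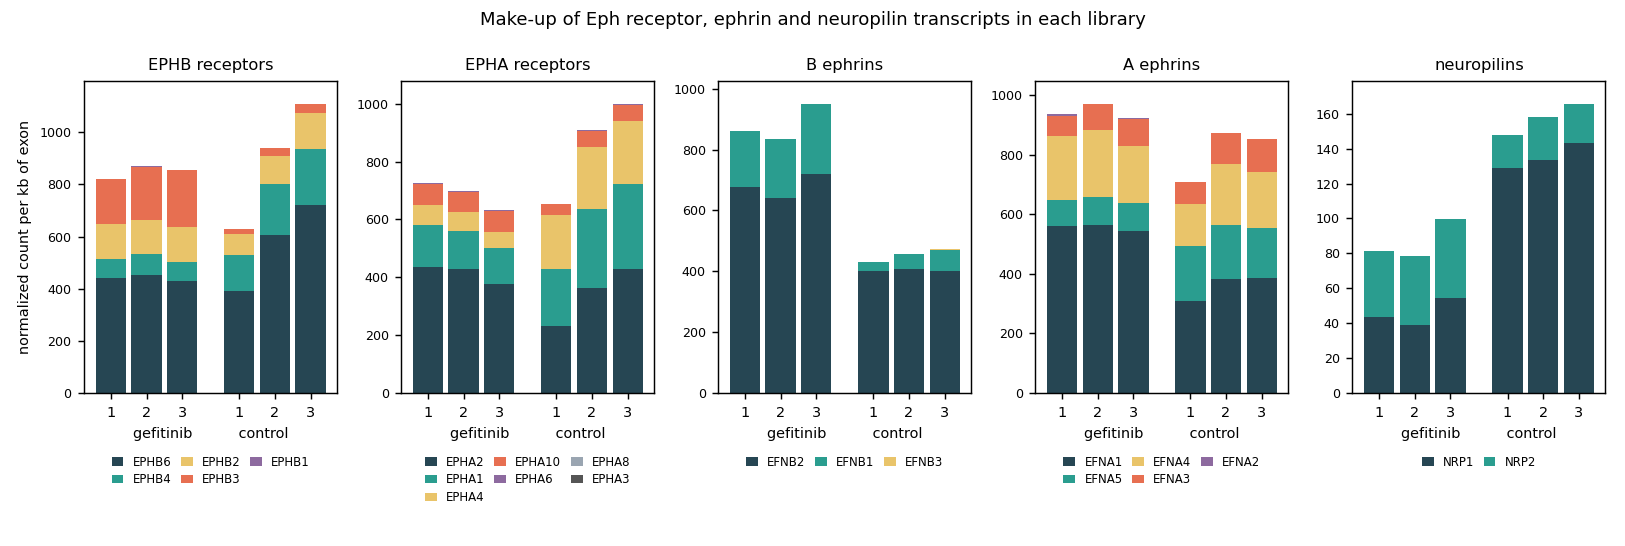
Normalized count per kilobase of exon in each library (bars; gefitinib libraries 1 to 3 at the left, control libraries 1 to 3 at the right of each panel), stacked by gene for EPHB receptors, EPHA receptors, B ephrins, A ephrins and neuropilins. EPHB3 takes 21.0 to 25.5% of the EPHB stack with gefitinib and 2.53 to 3.27% in control, and NRP1 takes 49.8 to 54.9% of the neuropilin stack with gefitinib and 84.3 to 87.2% in control.

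The 250 bases before the gene start of 5 strongly differing genes are shown to set the promoters of genes that were higher (EPHB3, EFNB1 and SEMA3F) beside those of genes that were lower (EPHA4 and EPHB4). They are RefSeq sequences (GRCh38.p14, outermost RefSeq start, 5′ to 3′ on the gene's strand). SEMA3F has 3 RefSeq starts and EPHA4 has 2, and which start these cells use was not tested. Capitals mark letters of motifs searched on both strands: the GC box GGGCGG, bound by SP and KLF factors, and an EGR motif, GCGNGGGCG, which can overlap it.
EPHB3 (chr3:184561535-184561784, plus strand): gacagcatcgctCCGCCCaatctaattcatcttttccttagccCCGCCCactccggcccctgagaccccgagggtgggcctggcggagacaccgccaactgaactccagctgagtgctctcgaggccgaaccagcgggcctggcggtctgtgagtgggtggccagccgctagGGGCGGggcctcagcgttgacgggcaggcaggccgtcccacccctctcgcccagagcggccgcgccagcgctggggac
EFNB1 (chrX:68828771-68829020, plus strand): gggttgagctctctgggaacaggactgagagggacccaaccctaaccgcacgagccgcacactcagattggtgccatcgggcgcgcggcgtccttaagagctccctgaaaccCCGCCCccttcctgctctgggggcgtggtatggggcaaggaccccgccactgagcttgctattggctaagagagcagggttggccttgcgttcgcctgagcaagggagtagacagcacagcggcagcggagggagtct
SEMA3F (chr3:50154808-50155057, plus strand): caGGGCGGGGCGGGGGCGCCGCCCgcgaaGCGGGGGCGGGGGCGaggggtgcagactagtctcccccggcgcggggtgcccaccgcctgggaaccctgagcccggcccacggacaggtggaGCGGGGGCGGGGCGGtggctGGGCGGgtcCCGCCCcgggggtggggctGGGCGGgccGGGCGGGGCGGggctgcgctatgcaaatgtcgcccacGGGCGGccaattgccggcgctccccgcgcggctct
EPHA4 (chr2:221574203-221574452, minus strand): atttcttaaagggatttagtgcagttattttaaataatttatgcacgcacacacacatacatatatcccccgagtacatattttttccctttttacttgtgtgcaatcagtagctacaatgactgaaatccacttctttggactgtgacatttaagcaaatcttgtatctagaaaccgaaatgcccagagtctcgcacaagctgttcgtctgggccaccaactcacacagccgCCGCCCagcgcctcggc
EPHB4 (chr7:100827524-100827773, minus strand): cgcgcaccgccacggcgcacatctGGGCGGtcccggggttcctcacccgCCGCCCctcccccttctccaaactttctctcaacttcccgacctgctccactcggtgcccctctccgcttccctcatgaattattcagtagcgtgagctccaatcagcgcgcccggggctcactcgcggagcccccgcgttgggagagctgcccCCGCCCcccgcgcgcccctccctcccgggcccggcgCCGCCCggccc
An AP-1 motif (TGANTCA), an ETS motif (CCGGAAG), the E box CACGTG, a FOXO motif (GTAAACA) and the CRE TGACGTCA were also searched and are not in these 5 windows. SEMA3F had 12 GC boxes and 4 EGR motifs, many of them overlapping, EPHB4 had 4 GC boxes, EPHB3 had 3, and EFNB1 and EPHA4 had 1 each. Windows were found for 55 of the 64 members, of which 18 have more than 1 start and were searched at the outermost only. For 29 of them the bases after the window were found near the start of a GENCODE transcript. GC boxes were in 80.0% of them, against 63.35% of 11427 tested genes, and in 16 of 17 members that were higher, 8 of 10 that were lower and 20 of 28 that did not pass. The EGR motif was in 10 member windows (18.2%, against 12.8% of tested genes), of which 2 belonged to higher and 2 to lower members. The AP-1 motif was in 0 member windows, against 4.43% of tested genes, and the ETS motif in 2 (3.64%, against 14.2%). The E box was in 3 member windows (5.45%, against 8.37%), the FOXO motif in 1 (1.82%, against 2.02%) and the CRE in 3 (5.45%, against 2.53%). Member windows had a median GC content of 67.6%, against 64.0% for tested genes. Such matches describe letters, not binding.

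Neuropilins, the co-receptors of class 3 semaphorins and of some vascular growth factors, moved in opposite directions. NRP1 (chromosome 10, 33177492 to 33336262) had 504, 452 and 629.6 in gefitinib libraries, against 1488, 1536 and 1651 in control libraries. NRP2 (chromosome 2, 205681990 to 205798133) had 519.8, 549 and 624 with gefitinib, against 264, 346 and 309.9 in control. Neither gene's groups overlapped: NRP1 fell by 1.57 ± 0.13 (limma adjusted p = 1.33e-05) and NRP2 rose by 0.88 ± 0.14 (limma adjusted p = 0.000622). Per kilobase of exon, NRP1 made up 53.9, 49.8 and 54.9% of the neuropilin level in gefitinib libraries, against 87.2, 84.3 and 86.5% in control libraries.

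Of 7 class 3 semaphorins, the secreted neuropilin ligands, 2 rose, 1 fell and 4 did not pass. The shares that rose and fell were 28.6% and 14.3%, against 28.3% and 22.8% of all tested genes. SEMA3F (chromosome 3, 50155045 to 50189075), which acts mainly through NRP2, had 138, 114 and 152 in gefitinib libraries, against 16.2, 30.1 and 29.9 in control libraries. The means differed 5.29-fold and the log2 difference was 2.40 ± 0.29 (limma adjusted p = 0.000139; 2.12 without control 1). SEMA3C (chromosome 7, 80742538 to 80922359), the semaphorin with the highest level per kilobase, had 1833, 1590.5 and 1565 with gefitinib, against 2796, 2369.6 and 2074 in control, where control 1 was the highest. It fell by 0.53 ± 0.12 (limma adjusted p = 0.00470). SEMA3G rose at few reads, with 3.97, 6.33 and 14.5 in gefitinib, against 0.705, 2.23 and 3.86 in control (limma adjusted p = 0.0487; 0.131 and 0.0916 without control 1 or 2, and 0.0908 and 0.188 without gefitinib 2 or 3). SEMA3B, a tumour suppressor candidate on the short arm of chromosome 3, did not overlap between groups but had an adjusted p of 0.0594 (difference 0.61 ± 0.24; 0.0425 and 0.0437 without gefitinib 1 or control 3, 0.0429 by edgeR, and between 0.00852 and 0.192 across alternatives). SEMA3D and SEMA3E had differences of -0.20 ± 0.27 and 0.05 ± 0.22, and SEMA3A, the prototype repellent, had at most 3.75 normalized counts in a library.

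Class 4 semaphorins, which are bound to the membrane and act mainly through B and D plexins, split as well. SEMA4C had 229, 201 and 207 in gefitinib libraries, against 296, 422 and 433 in control libraries, and fell by 0.83 ± 0.17 (limma adjusted p = 0.00302). SEMA4B fell by 0.60 ± 0.21 (limma adjusted p = 0.0352), with 881, 859 and 813 in gefitinib, against 892, 1374 and 1744 in control; control 1 lay just above the gefitinib libraries. Its adjusted p was 7.84e-05 without control 1, 0.103 and 0.0893 without control 2 or 3, and 0.0884, 0.0864 and 0.0953 without gefitinib 1, 2 or 3. SEMA4F rose by 0.41 ± 0.15 (limma adjusted p = 0.0458), a call lost in 11 alternatives, among them TMM factors (0.0788), edgeR (0.0634) and leaving out control 1 (0.0660), control 2 (0.124), gefitinib 1 (0.102) or gefitinib 2 (0.172). SEMA4G had 48 reads in the gefitinib libraries and 0 in the control libraries. With 3 reads put in for the control group this is 13.4-fold higher, which leaves out counting error in the gefitinib reads. The exons of SEMA4G overlap those of MRPL43 on the other strand, so the origin of these reads is uncertain. SEMA4A and SEMA4D, an immune semaphorin also made by carcinomas, had differences of 0.27 ± 0.22 and 0.10 ± 0.13.

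SEMA7A (chromosome 15, 74409289 to 74433958), a lipid-anchored semaphorin that also binds integrins, had 337, 322 and 372 in gefitinib libraries, against 105, 136 and 161 in control libraries. The groups were well separated, and the gene rose by 1.37 ± 0.18 (limma adjusted p = 0.000234). SEMA6C rose by 0.75 ± 0.20 (limma adjusted p = 0.0122; 0.0571 without gefitinib 2, the highest across alternatives). SEMA5A, at 1172 ± 18.5 in gefitinib and 1044 ± 62.2 in control libraries (SD, n = 3), and SEMA5B did not pass. SEMA6B had a difference of 1.59 ± 0.65 (limma adjusted p = 0.0689; 0.00249 without control 3, its highest control, and between 0.00249 and 0.207 across alternatives).

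Of 9 plexins, the semaphorin receptors, PLXNB3 was higher, PLXNA2 was lower and 7 did not pass. The shares were 11.1% in each direction, against 28.3% higher and 22.8% lower among all tested genes. PLXNA2 (chromosome 1, 208022242 to 208244320), which pairs with neuropilins, had 870.3, 839 and 873 in gefitinib libraries, against 1501, 2125 and 2220.2 in control libraries. The gefitinib libraries were nearly alike and all below the controls, and PLXNA2 fell by 1.16 ± 0.14 (limma adjusted p = 0.000134). PLXNB3 rose by 1.26 ± 0.35 at a low level, at 11.9, 8.13 and 13.1 in gefitinib, against 3.53, 4.46 and 3.86 in control (limma adjusted p = 0.0130; 0.0598 without gefitinib 3, 0.116 by DESeq2, and between 0.00508 and 0.116 across alternatives); its exons overlap those of SRPK3 on the same strand.

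PLXNB2, a receptor for class 4 semaphorins and angiogenin, had the highest mean level per kilobase of all 64 genes in both groups. It was 822 ± 10.3 in gefitinib and 646 ± 248 in control libraries (SD, n = 3). In control 1 PLXNB2 was at 382, below UNC50 (519), NTN4 (510), SEMA3C (446), EFNB2 (402) and EPHB6 (392). Its counts were 5933, 5912 and 6050.4 with gefitinib, against 2776, 4946 and 6341 in control, so the control libraries spread around the gefitinib values. The difference was 0.43 ± 0.24 (limma adjusted p = 0.173), 0.09 without control 1, and past the threshold without control 3 (0.0157) and with the GC trend removed (0.00186), with adjusted p between 0.00186 and 0.437 across alternatives. PLXNA1 and PLXNB1 had differences of -0.03 ± 0.25 and -0.23 ± 0.22, and both were called lower without control 1 (-0.36 and -0.47, limma adjusted p = 0.0160 and 0.0242). PLXND1 and PLXNA3 had differences of -0.02 ± 0.16 and 0.20 ± 0.21, and PLXNA4 and PLXNC1 were at most at 4.94 normalized counts.

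Among netrins and their receptors, NTN4, a netrin of basement membranes, was the most abundant per kilobase. NTN4 (chromosome 12, 95657807 to 95791152) had 1126, 1275 and 1426 in gefitinib libraries, against 2125, 1842 and 2004 in control libraries, and fell by 0.65 ± 0.11 (limma adjusted p = 0.000792). NTN1, the classical secreted netrin, had 373, 357 and 355 with gefitinib, against 168, 241 and 307 in control. It rose by 0.64 ± 0.21 (limma adjusted p = 0.0270), a difference of 0.41 without control 1, with adjusted p of 0.0833, 0.0752 and 0.0649 without gefitinib 1, 2 or 3 and 0.0594 without control 2. Its receptor gene UNC5B (chromosome 10, 71212570 to 71302864), a netrin receptor of blood vessels and epithelia that can promote cell death in the absence of ligand, had 931, 1009 and 1160.2 with gefitinib, against 269, 447 and 533 in control. UNC5B rose by 1.36 ± 0.22 (limma adjusted p = 0.000806; 1.07 without control 1), with no overlap. UNC5A, a related receptor, had a difference of 0.53 ± 0.32 (limma adjusted p = 0.196; 0.0366 without control 3, 0.0124 with the GC trend removed, and between 0.0124 and 0.561 across alternatives), and of 0.12 without control 1 (limma adjusted p = 0.561). NTN3, NTN5, NTNG1 and UNC5D had at most 7.72 normalized counts in a library.

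SLIT and ROBO genes were low apart from ROBO1. ROBO1, the SLIT receptor with the highest level here, had 595, 649 and 705 in gefitinib libraries, against 528, 532 and 466 in control libraries. The groups did not overlap and the difference was 0.35 ± 0.11 (limma adjusted p = 0.0266), a call lost with TMM factors (0.0740), by edgeR (0.0665), DESeq2 (0.0768) and limma-voom (0.0524), and without gefitinib 2 (0.0900), gefitinib 3 (0.108), control 2 (0.0570) or control 3 (0.0828), with adjusted p between 0.0107 and 0.108 across alternatives. SLIT2, a ligand of ROBO1, had 2, 7 and 23 reads in gefitinib libraries 1, 2 and 3 and 0 in the control libraries. With 3 reads put in for the control group this is 8.94-fold higher, which leaves out counting error in the gefitinib reads. SLIT1 was lower, at 1.32, 1.81 and 1.41 normalized counts in gefitinib, against 3.53, 3.35 and 5.79 in control (limma adjusted p = 0.0445). This call was lost when any 1 library was left out (from 0.0671 to 0.161). It was also lost with a pseudocount of 0.5, with the replicate block (0.0740) and by DESeq2 (0.296, the highest across alternatives). The exons of SLIT1 overlap those of ARHGAP19-SLIT1 on the same strand. ROBO3 had 10 reads in gefitinib and 2 in control libraries. ROBO4, an endothelial receptor, had 0 reads in gefitinib and 4 in control libraries (0, 2 and 2), too few to set a lowest fold. Its limma adjusted p was 0.111, 0.0182 without control 1, and between 0.0182 and 0.319 across alternatives.

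**Figure D4:**
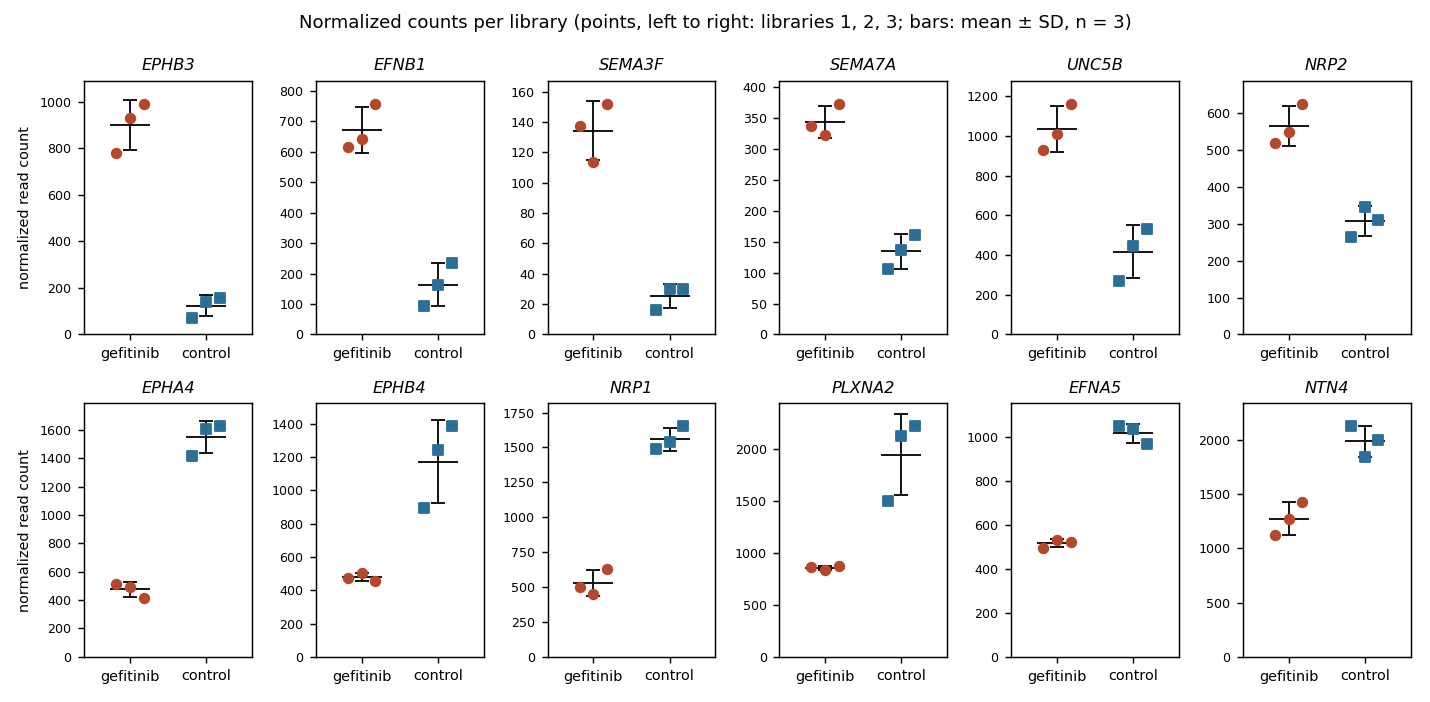
Normalized read count in each library for 6 genes that were higher with gefitinib (top) and 6 that were lower (bottom); points are libraries 1, 2 and 3 from left to right, and bars give the mean and SD of 3 libraries. In every panel the gefitinib and control libraries do not overlap. Control 1 is the lowest control for EPHB3, EFNB1, SEMA3F, SEMA7A, UNC5B, NRP2, EPHA4, EPHB4, NRP1 and PLXNA2, and the highest for EFNA5 and NTN4.

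The 2 genes caught by the prefix alone were both called. UNC5CL, which encodes a protein linked to inflammatory signalling, had 102, 87.7 and 90.9 in gefitinib libraries, against 40.9, 34.6 and 33.8 in control libraries, and rose by 1.34 ± 0.22 (limma adjusted p = 0.000876); its exons overlap those of OARD1 on the same strand. UNC50, a Golgi membrane protein gene, rose by 0.29 ± 0.08 (limma adjusted p = 0.0168; 0.0640 with TMM factors, 0.0585 by edgeR, 0.0992 by DESeq2, and 0.0613 and 0.0633 without gefitinib 2 or control 2).

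Partners that carry guidance signals inside the cell moved in both directions. Of 58 tested genes on a list of 59, 17 rose and 17 fell, or 29.3% each against backgrounds of 28.3% and 22.8%, with a median difference of 0.10; without gefitinib replicate 3, 11 rose, against 24.0% of all genes in that fit. MICAL2, an actin-oxidizing enzyme related to plexin effectors, fell to 585 ± 37.1 in gefitinib libraries, against 2238 ± 117 in control libraries (SD, n = 3; log2 difference -1.94 ± 0.09, limma adjusted p = 1.11e-06). SRGAP1, a GTPase-activating protein that binds ROBO receptors, fell to 359.6 ± 33.0, against 1425 ± 51.5 in control. DPYSL2, the semaphorin signal mediator CRMP2, and TRIO, an exchange factor for small GTPases, had differences of -1.22 ± 0.07 and -1.37 ± 0.08. RND3, an atypical small GTPase gene, and PTK2, the focal adhesion kinase gene, had -1.42 ± 0.12 and -0.92 ± 0.08. Among those that rose, the exchange factor genes FARP2, ARHGEF12 and ARHGEF11, which act with plexins, had differences of 0.74 ± 0.08, 0.59 ± 0.07 and 0.91 ± 0.14. FYN, a Src family kinase gene, and SOS1, an exchange factor for Ras, had 0.86 ± 0.09 and 0.64 ± 0.08. The kinase gene FES rose by 2.65 ± 0.41, with 17.7 ± 5.41 normalized counts in gefitinib and 2.01 ± 0.948 in control libraries.

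Of the 22 members whose exons overlap an exon of another annotated gene, EPHA4, NRP1, NRP2, SEMA3F, SEMA5A and EFNB2 overlap antisense genes and EPHB4 and EPHA1 the ends of coding neighbours. Strand use in the counting is not stated, and reads in those stretches are of uncertain origin.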

How the data were processed

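RNA was sequenced from 3 gefitinib and 3 control libraries, grouped by title. Per the submitters' processing notes, STAR, HTSeq and GRCh38 were used, with no versions named. The deposited values are a never-negative signal: read counts of coding genes divided by a factor per library, which gives every library a sum of 18085800. Undoing that factor returned whole reads for 100% of values above 0 (within 0.01 read). A further deposited table held 6 per-sample columns that match no label and were not used. Coordinates, exon lengths and transcript GC content came from GENCODE release 29 (GRCh38). Exon length was the merged length of all annotated exons of a gene, and which of them these cells use was not tested.

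The 147 genes without a read in any library were left out. For the remaining 15229, limma-trend (limma 3.58.1 in R 4.3.3) compared log2(value + 1) between groups with 2-sided p adjusted by Benjamini and Hochberg's method over these genes, called at 0.05; this scale understates the change of low genes. Exact 95% intervals cover counting error only. Folds with 3 reads put in for a group without reads take the other group's reads as exact, so they are not lower limits. Alternatives were pseudocounts of 0.5 and 5, a mean of 10 or more, 1 CPM or more in 3 libraries, TMM factors, DESeq2 size factors, the recovered reads in edgeR 4.0.16, DESeq2 1.42.0 and limma-voom, a replicate block, each library left out and, chosen after seeing the data, removal of each library's transcript GC trend (loess, span 0.3). The tests were tried on simulated data, and no pair of replicate libraries looked like 1 library deposited again.

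Values of every library are given for members past the threshold with an absolute log2 difference of 1 or more and a mean of 20 or more, and for the member of each family with the highest level per kilobase; other members with library values were picked after their values were seen. Partner and other guidance genes are named by up to 6 smallest p in each direction. The members and lists were chosen with earlier results of these data known. A further marker list is not reported here.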

Additional observations from a re-analysis of the deposited data

How the results depend on the processing

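Of the 31 guidance genes called, 20 kept their direction and their side of the threshold under every alternative run, 11 lost the call under at least 1, and 0 changed direction; the cause was not tested. Of the 33 not called, 11 changed sign under some alternative and 11 passed the threshold under some. Over the fits that left out 1 library, the log2 differences whose sign changed ran as follows: NTNG1 from -0.52 to 0.32, PLXNA1 from -0.36 to 0.17, PLXNA3 from -0.015 to 0.38, PLXNA4 from -0.73 to 0.015, PLXNC1 from -0.26 to 0.18, PLXND1 from -0.23 to 0.14, SEMA3A from -0.67 to 0.51, SEMA3D from -0.33 to 0.028, SEMA3E from -0.11 to 0.20, SEMA4D from -0.033 to 0.21 and SEMA5B from -0.47 to 0.080. SEMA3A also changed sign at 0.058 by DESeq2, and SEMA3E at -0.0087 with TMM factors, -0.013 with DESeq2 size factors, -0.044 by edgeR, -0.048 by DESeq2, -0.056 by limma-voom, -0.11 with the GC trend removed. The counts of guidance genes higher and lower, 20 and 11 of 64, were 17 and 11 with TMM factors (all genes 25.8% and 24.9%). They were 26 and 12 with the GC trend removed (4690 and 4372 of 15073). With edgeR, which tested 45 of the guidance genes, they were 14 and 11 (30.5% and 30.8%). Leaving out 1 library gave from 13 to 25 higher and from 9 to 14 lower, and from 11 to 18 partner genes higher, against 22.9% to 30.2% of all genes higher and 18.9% to 26.4% lower. The replicate numbers were not taken to pair the libraries. Same-numbered deviations correlated at 0.127, 0.0444 and 0.0947, and differently numbered ones at -0.128 to 0.0862. Each gefitinib library correlated best with its same-numbered control, while control 2 correlated better with gefitinib 3 than with gefitinib 2. Whether the numbers mark a shared batch was not tested. With the replicate block 21 guidance genes were higher and 10 lower. Depth limits the 19 genes with a mean under 10, where a few reads decide a value.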

Other observations

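Guidance genes outside the symbol rule were also measured. Of 9 tested on a list of 10, 4 rose and 1 fell with gefitinib, against backgrounds of 28.3% and 22.8%. RGMB, which encodes a repulsive guidance molecule that is also a co-receptor for bone morphogenetic proteins, had normalized counts of 1468, 1632 and 1761 in gefitinib libraries, against 484, 472 and 514 in control libraries (log2 difference 1.72 ± 0.10, SE; limma adjusted p = 2.52e-06). NEO1, the neogenin receptor for these molecules and for netrins, had 456, 457 and 574 with gefitinib, against 213, 222 and 236 in control, and RGMA rose by 1.18 ± 0.31. FLRT3, an adhesion protein that binds UNC5 receptors, fell to 30.4, 34.3 and 33.3, against 127, 134 and 124 in control (log2 difference -1.94 ± 0.21; limma adjusted p = 6.49e-05). NGFR was called higher with 8 reads in the gefitinib and 0 in the control libraries (limma adjusted p = 0.00848; 0.203 by DESeq2, the highest of a range from 0.00650 across alternatives). The RGMB, NEO1 and FLRT3 libraries did not overlap between groups.

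Some members are neighbours in the genome. SEMA3F and SEMA3B lie 78.5 kb apart on chromosome 3 and had differences of 2.40 and 0.61. EFNA4, EFNA3 and EFNA1 lie in a row on chromosome 1, with gaps of 9.32 and 39.9 kb and differences of 0.27, -0.24 and 0.64. ROBO3 and ROBO4 lie 2.22 kb apart on chromosome 11, both with few reads.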
